A study of Mus musculus with 9 samples.

Results

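The genes described here are 40 genes of mitosis, the stage of the cell cycle in which duplicated chromosomes are condensed, attached to a spindle, separated and divided between daughter cells. They were chosen by name from a list of gene symbols, with no measured value in the rule. Earlier results of these data were nevertheless known when members, lists and tests were chosen. Of the 40, 39 were measured, among 19938 genes with values in all; the expression of Ccnb1 was not analysed here. Expression was measured on 9 Affymetrix arrays of the D2.OR line, mouse mammary tumor cells used as a model of disseminated tumor cells that stay dormant. All 9 arrays came from the same line in 3D culture and differed in the matrix around the cells.

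The title of the series ties fibrillar collagen to protection from mammary cancer after pregnancy. The arrays fell into 3 groups of 3: cells in fibrillar collagen I, cells in non-fibrillar collagen I and cells in Matrigel, a basement membrane extract. The sources used here do not give culture time, passage or collagen density. The Matrigel group rests on the sample titles, because the growth label of these arrays names non-fibrillar collagen I instead. Their accession numbers are also later than those of the collagen arrays, so the matrix and a possible batch cannot be told apart in the Matrigel comparisons. Separate cultures are not stated for the replicates. The p-values set differences between groups against the scatter of these samples within groups, and that scatter may be technical only. The design text names the 2 forms of collagen as its conditions, and comparisons with Matrigel follow from the titles.

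Entry into mitosis is driven by the kinase CDK1 bound to its cyclins, and the Polo-like and Aurora kinases then build the spindle and correct its attachments. The spindle checkpoint holds the anaphase-promoting complex (APC/C) back until every kinetochore is attached, and APC/C with its activator CDC20 then triggers separation of the chromatids and the destruction of the cyclins. Transcripts of these genes accumulate late in the cycle and are low in resting cells, so they are widely used as markers of proliferation. In bulk RNA a smaller share of dividing cells and less RNA per dividing cell cannot be told apart.

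The late peak of these transcripts is known to depend on a short promoter element called CHR (cell cycle genes homology region), through which the DREAM complex keeps the genes off in resting cells and MYB-MuvB with FOXM1 turns them on, and on CCAAT boxes bound by NF-Y. RefSeq promoter windows of the GRCm38.p6 build, from 250 bases before to 50 after an annotated start, were found for 32 of the 40 genes, 34 promoters in all. The CHR core was searched as TTTGAA or TTCGAA and the NF-Y box as CCAAT, on both strands; TTCGAA is its own reverse complement, and the CHR core and the box overlapped in 1 member promoter. A stretch of 170 bases, from -150 to +20, is shown for 6 genes, with each match inside it in capitals. Cdk1 (chr10:69352893-69353062, minus strand), Bub1 (chr2:127831840-127832009, minus strand), Mad2l1 (chr6:66535071-66535240, plus strand) and Smc2 (chr4:52439071-52439240, plus strand) are shown because they were the genes called between the forms of collagen. Cdc20 (chr4:118437324-118437493, minus strand) was called in no comparison, and Kif2c (chr4:117178753-117178922, minus strand) had the largest difference between fibrillar collagen and Matrigel. All sequences run 5′ to 3′ in the direction of transcription.
Cdk1: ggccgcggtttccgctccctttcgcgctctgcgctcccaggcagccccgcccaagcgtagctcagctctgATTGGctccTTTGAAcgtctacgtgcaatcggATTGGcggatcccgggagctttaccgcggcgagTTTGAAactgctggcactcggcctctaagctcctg
Bub1: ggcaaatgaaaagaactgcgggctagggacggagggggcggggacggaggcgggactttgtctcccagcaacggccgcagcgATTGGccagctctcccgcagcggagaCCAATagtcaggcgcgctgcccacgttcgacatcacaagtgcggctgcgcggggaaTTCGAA
Mad2l1: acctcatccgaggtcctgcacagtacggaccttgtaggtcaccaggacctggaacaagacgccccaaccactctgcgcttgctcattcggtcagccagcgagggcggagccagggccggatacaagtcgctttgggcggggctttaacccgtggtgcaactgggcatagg
Smc2: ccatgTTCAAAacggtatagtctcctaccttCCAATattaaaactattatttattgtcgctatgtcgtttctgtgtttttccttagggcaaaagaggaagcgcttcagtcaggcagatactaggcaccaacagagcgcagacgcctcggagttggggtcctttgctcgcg
Cdc20: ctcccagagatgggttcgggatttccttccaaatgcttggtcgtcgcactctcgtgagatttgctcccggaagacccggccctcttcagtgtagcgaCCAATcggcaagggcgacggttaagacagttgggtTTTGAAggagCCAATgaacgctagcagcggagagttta
Kif2c: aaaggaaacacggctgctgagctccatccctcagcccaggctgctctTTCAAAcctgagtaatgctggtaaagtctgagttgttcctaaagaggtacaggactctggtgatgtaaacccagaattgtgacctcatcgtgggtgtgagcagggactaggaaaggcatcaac

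Cdk1 carries a CHR core from -15 to -10 and another from -71 to -66, each with an NF-Y box upstream. Bub1 carries TTCGAA from +15 to +20 below a pair of NF-Y boxes, and Cdc20 a core from -18 to -13 between such boxes. Kif2c has a core from -103 to -98 and no box, Smc2 has cores from -145 to -140 and from +27 to +32, the latter past the stretch shown, and the Mad2l1 window holds neither motif, which says only that these letters are not in it. Of the 34 promoters, 27 (79.4%) held a CHR core, against 19.2% of all 32851 promoters of the same length. An NF-Y box was in 26 (76.5%), against 37.4% of all promoters, and both motifs were in 24 (70.6%), against 7.52%. Of the 38 CHR cores, counted by window, 25 began between -30 and +50. Ect2 and Prc1 have overlapping windows, so their cores are counted more than once. Positions over all promoters were not counted. Of the members called in non-fibrillar collagen against Matrigel 20 of 26 genes with a window held a core, and of those not called 5 of 5. In 95 promoters of other mitosis genes 44 (46.3%) held a CHR core, and in 37 promoters of genes of DNA replication and the entry into S phase 5 (13.5%) did. A match describes the letters and is not a measured binding site.

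**Figure D1:**
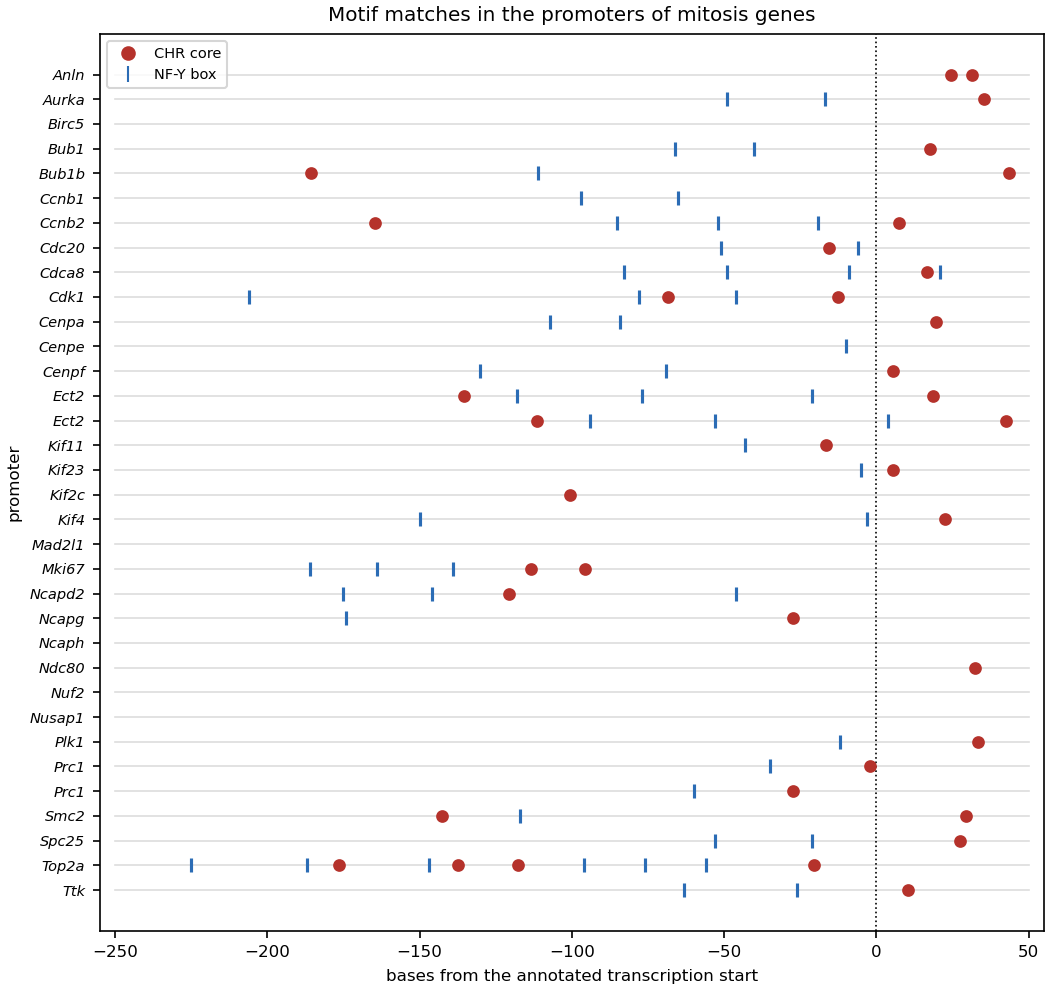
Positions of the CHR core (circles) and the NF-Y box (bars) in 34 promoter windows of 32 mitosis genes, in bases from the annotated start, drawn at 0 as a dotted line. Of the 38 CHR cores, 25 began between -30 and +50, with cores of Ect2 and Prc1 counted again in overlapping windows. The windows of Birc5, Mad2l1, Ncaph, Nuf2 and Nusap1 held neither motif.

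The deposited log2 values ranged from 2.11 to 14.08 with array medians from 5.98 to 6.05, and array values of the mitosis genes lay between 7.17 and 11.32. Of the epithelial markers, Krt8 (13.12 to 13.33), Krt18 (12.60 to 12.92), Krt14 (11.21 to 11.56), Krt7 (9.42 to 10.68) and Cdh1 (9.0 to 9.12) were bright. Of the mesenchymal markers, Vim (13.25 to 13.37), Fn1 (11.95 to 12.38) and Zeb1 (7.27 to 7.58) lay above the median gene and Cdh2 (5.06 to 5.17) below it. Epcam (5.84 to 6.24), Krt5 (5.55 to 5.87) and Krt19 (5.14 to 5.45) also lay below the median gene, at 6.44. The mean of the 8 epithelial markers was 9.24 to 9.27 in fibrillar collagen, 9.30 to 9.32 in non-fibrillar collagen and 9.09 to 9.13 in Matrigel, without overlap, and that of the 4 mesenchymal markers 9.53 to 9.58, 9.42 to 9.46 and 9.50 to 9.57. Krt7 was higher in non-fibrillar collagen (1.20 ± 0.039, adjusted p = 5.6e-07) and in fibrillar collagen (0.90) than in Matrigel, and between the collagens its difference, fibrillar minus non-fibrillar, was -0.30 (adjusted p = 0.0092). Krt18 also rose against Matrigel in both collagens, Epcam in non-fibrillar collagen, and Krt14 fell in both. Fn1 was higher in fibrillar than in non-fibrillar collagen (0.23, adjusted p = 0.029) and lower in non-fibrillar collagen than in Matrigel (-0.28, adjusted p = 0.016). Of 22 measured markers of macrophages, fibroblasts, endothelium, adipocytes and lymphocytes, 2 were higher in fibrillar than in non-fibrillar collagen (Cd68, at 7.56 to 9.07 over the 9 arrays, and Pdgfra, at 10.12 to 11.36). Col1a1 was also bright (8.55 to 8.73). Against Matrigel 2 were lower in fibrillar collagen (Cd68 and Fabp4, the latter at 5.23 to 6.47) and 4 in non-fibrillar collagen (these, Pdgfra and Kdr). Over all genes 2.71% were called higher in fibrillar than in non-fibrillar collagen. Against Matrigel 2.37% were called lower in fibrillar and 7.07% in non-fibrillar collagen. The mean of the macrophage markers was 5.20 to 5.28 in fibrillar collagen, 5.07 to 5.11 in non-fibrillar collagen and 5.31 to 5.33 in Matrigel. For fibroblast markers the ranges were 6.67 to 6.74, 6.51 to 6.61 and 6.74 to 6.84, for adipocyte markers 5.18 to 5.34, 5.13 to 5.18 and 5.48 to 5.56, for endothelial markers 5.36 to 5.37, 5.20 to 5.35 and 5.31 to 5.39, and for lymphocyte markers 4.89 to 4.92, 4.79 to 4.89 and 4.78 to 4.87. In non-fibrillar collagen against Matrigel 1 of 7 macrophage markers was called (median difference -0.01, lowest -1.38). So were 1 of 5 fibroblast markers (median -0.07, lowest -1.01) and 1 of 3 adipocyte markers (median -0.06, lowest -1.02). The shifts of these means thus rest mostly on single genes. The epithelial median there was 0.10, with a range from -0.30 to 1.20. Ptprc, Adgre1 and Csf1r, which define leukocytes and macrophages, stayed at or below 5.12 on every array, as did Adipoq (3.99 to 4.11) and Pecam1 (4.85 to 5.02). Other markers in the same lists lay above 5.12 on every array. Besides Cd68 and Fabp4 these included Tyrobp (at least 5.39), Cdh5 (5.40 to 5.68), Kdr (5.59 to 6.33) and Plin1 (6.05 to 6.28). The part of these markers in the differences between groups was not tested.

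Mitosis genes were lowest in Matrigel and higher in both forms of collagen. Group means of all 39 genes were above the Matrigel mean in both collagens, also after quantile normalization again and after centring on array medians. For 32 genes the order was Matrigel, fibrillar, non-fibrillar, an order held by 17.9% of all genes; for the other 7 fibrillar collagen was highest, an order held by 16.7% of all genes. Averaged over the 39 genes, and relative to each gene's mean over all arrays, Matrigel lay at -0.190 ± 0.064 (SD, n = 3), fibrillar collagen at 0.040 ± 0.091 and non-fibrillar collagen at 0.150 ± 0.047 log2 units. The Matrigel arrays, at -0.118, -0.212 and -0.241, lay below all others. The fibrillar arrays, at 0.137, 0.028 and -0.045, and the non-fibrillar arrays, at 0.185, 0.167 and 0.097, overlapped.

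**Figure D2:**
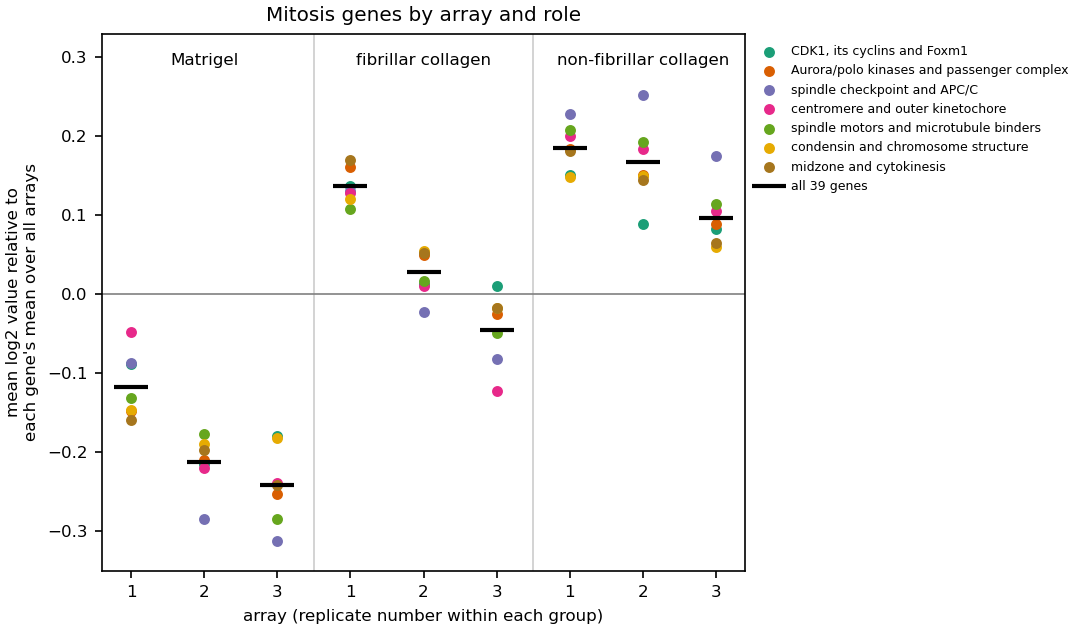
Mean log2 value of the mitosis genes on each array, relative to each gene's mean over the 9 arrays, for the 7 role groups (points) and for all 39 genes (bars). In the mean of all 39 genes the Matrigel arrays, from -0.241 to -0.118, lie below the fibrillar arrays, from -0.045 to 0.137, and these overlap the non-fibrillar arrays, from 0.097 to 0.185.

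In non-fibrillar collagen against Matrigel, 31 of the 39 genes rose, 0 fell and 8 did not pass (limma with Benjamini-Hochberg adjustment over all genes, threshold 0.05), where 6.75% of all genes were called higher, 7.07% lower and 13.8% in either direction. The median difference was 0.33 log2 units, against 0.00 over all genes, and single genes ranged from 0.11 to 0.58. Arrays of these groups did not overlap for 36 genes, all higher in collagen, where 14.4% of all genes did so. In fibrillar collagen against Matrigel 13 rose, 0 fell and 26 did not pass, where 1.45% of all genes were called higher, 2.37% lower and 3.82% in either direction. Here the median was 0.23, against 0.00 over all genes, with a range from 0.06 to 0.38, and the groups did not overlap for 26 genes, against 9.05% of all genes. These comparisons share the Matrigel arrays and are not independent, so each gene's values are given side by side, and a difference between the collagens is read only from their own comparison.

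In fibrillar against non-fibrillar collagen 4 genes fell, 0 rose and 35 did not pass, where 3.69% of all genes were called lower, 2.71% higher and 6.40% in either direction. At an unadjusted p under 0.05 the count was 16, against 21.6% of all genes. The 4 were Mad2l1, Bub1, Cdk1 and Smc2. The median was -0.10, against 0.01 over all genes, with a range from -0.38 to 0.17, and 32 of the 39 differences were negative. The groups did not overlap for 13 genes that were lower in fibrillar collagen, where 13.6% of all genes did so, and for 1 that was higher, Foxm1, where 11.6% of all genes did so. With replicate number as a block, 5 genes fell: Mad2l1, Bub1 and Cdk1 kept the call, Aurka and Nusap1 gained it (adjusted p = 0.048 and 0.041), and Smc2 was at 0.067. In that fit 3.72% of all genes were called lower and 2.73% higher. When 1 array was left out, 3 genes passed without fibrillar replicate 1, and 0 passed without any other single array. Over all genes these refits called from 0.752% to 2.85%. The fibrillar calls against Matrigel also moved. Of the 39 genes 6 passed without fibrillar replicate 2 or Matrigel replicate 2, and 7 without fibrillar replicate 1 or Matrigel replicate 3. Foxm1, Aurkb, Incenp, Kif2c and Top2a were called in all 9 such refits. Of the other genes called, Kif20a and Anln kept the call in 8, Aurka in 5, Dlgap5 and Smc2 in 4, Bub1b and Ncapg in 2 and Ccna2 in 0. In non-fibrillar collagen 21 of the 31 genes kept the call in all 9. Over all genes the refits against Matrigel called from 1.77% to 3.60% for fibrillar and from 9.10% to 13.2% for non-fibrillar collagen. The split of calls over all genes depended on scaling: 541 higher and 736 lower between the collagens became 640 and 612 after quantile normalization again and 421 and 968 after centring. For fibrillar collagen against Matrigel 289 and 473 became 373 and 366 after quantile normalization again, and for non-fibrillar collagen 1345 and 1410 became 1841 and 1092 after centring.

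**Figure D3:**
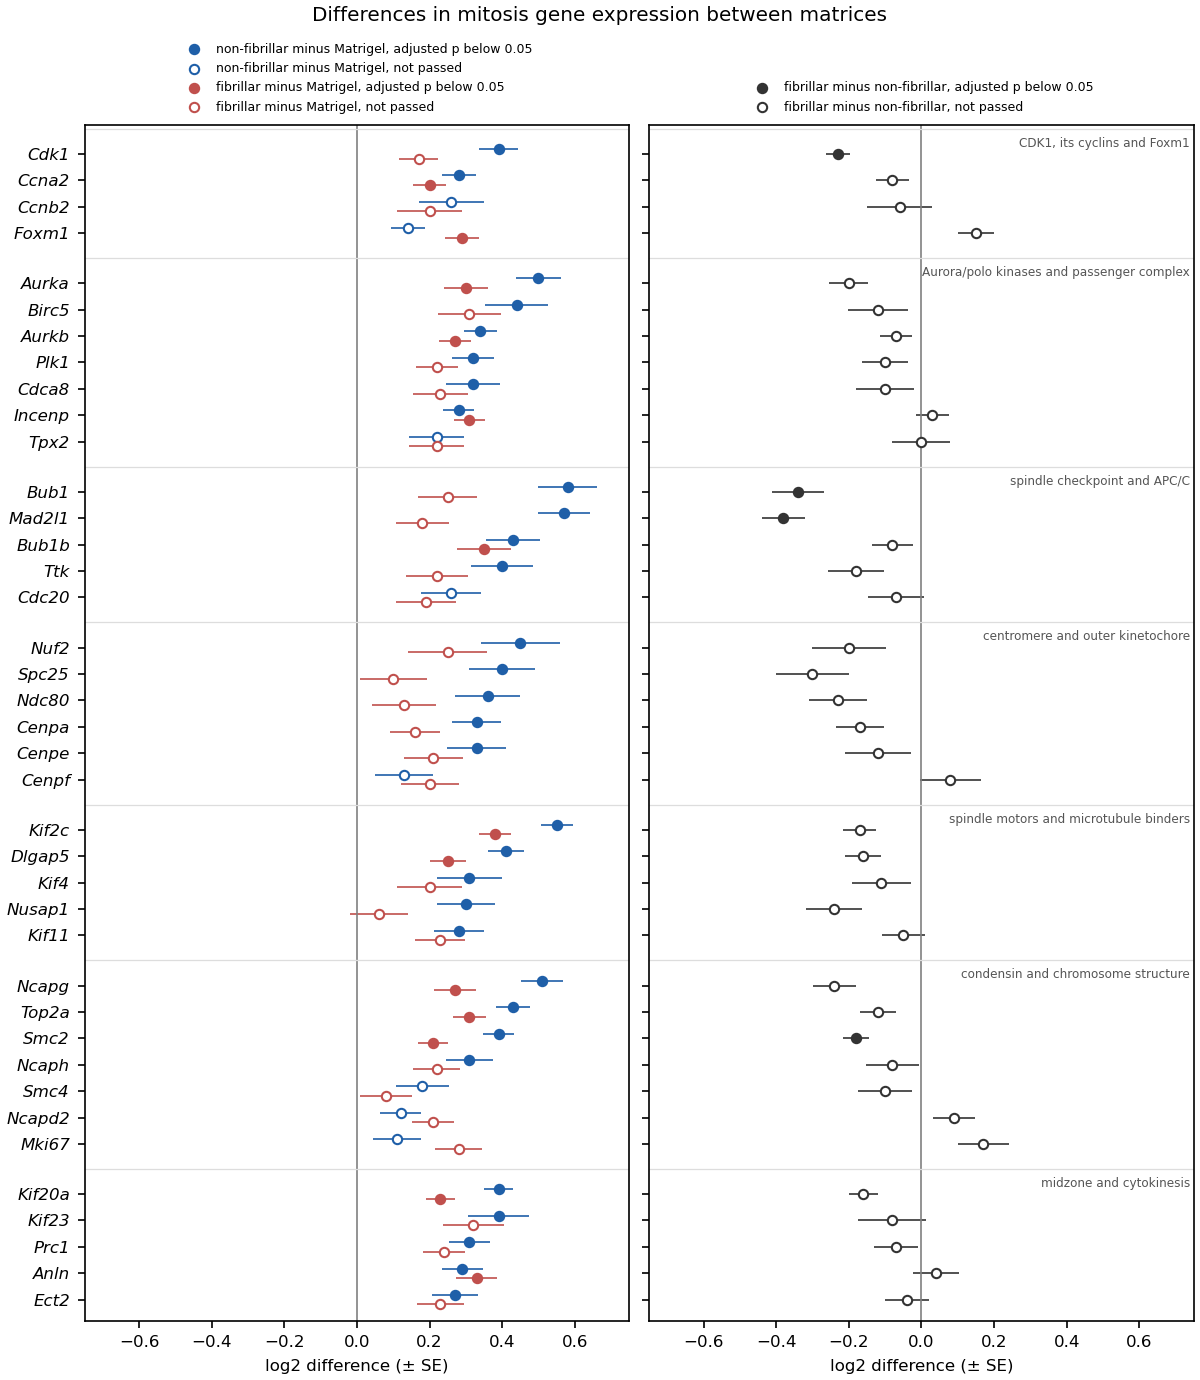
Log2 differences (points) with limma's standard errors (bars) for 39 mitosis genes by role, each collagen against Matrigel on the left and fibrillar against non-fibrillar collagen on the right; filled points passed an adjusted p of 0.05. All differences from Matrigel are positive, with 31 genes called in non-fibrillar and 13 in fibrillar collagen, and on the right 32 of 39 are negative, with 4 called.

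Cdk1, the kinase that starts mitosis, was at 11.29, 11.30 and 11.32 log2 units in non-fibrillar collagen, at 11.09, 11.07 and 11.07 in fibrillar collagen and at 11.04, 10.82 and 10.87 in Matrigel. The arrays of the 3 groups did not overlap, although Matrigel replicate 1 lay close to the fibrillar arrays. Cdk1 was 1.31-fold higher in non-fibrillar collagen against Matrigel (log2 0.39 ± 0.055 SE, adjusted p = 0.0013) and 1.17-fold lower in fibrillar collagen than in its non-fibrillar form (-0.23 ± 0.032, adjusted p = 0.016). Against Matrigel the fibrillar difference was 0.17 ± 0.055 (adjusted p = 0.14). Between the collagens Cdk1 was not called after quantile normalization again, or without any array other than fibrillar replicate 1. Ccna2, the cyclin that acts in S phase and on entry into mitosis, was at 11.17, 11.07 and 11.05 in fibrillar, 11.22, 11.18 and 11.14 in non-fibrillar collagen and 10.94, 10.86 and 10.90 in Matrigel. The Matrigel arrays lay below all others, and the collagens overlapped. Ccna2 rose in both collagens against Matrigel, by 0.20 ± 0.047 in fibrillar (adjusted p = 0.047) and by 0.28 ± 0.047 in non-fibrillar collagen (adjusted p = 0.0035). The fibrillar call was lost whichever array was left out. Ccnb2, a cyclin partner of CDK1 in mitosis, passed in no comparison, with 0.26 ± 0.090 in non-fibrillar collagen against Matrigel (adjusted p = 0.089).

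Foxm1, the transcription factor that switches on late cell cycle genes, had another order. It was at 9.23, 9.12 and 9.16 in fibrillar collagen, at 9.07, 9.03 and 8.95 in non-fibrillar collagen and at 8.86, 8.89 and 8.90 in Matrigel, with no overlap between groups. Foxm1 was 1.22-fold higher in fibrillar collagen than in Matrigel (0.29 ± 0.047, adjusted p = 0.010) and kept this call whichever array was left out. In non-fibrillar collagen against Matrigel it was at 0.14 ± 0.047 (adjusted p = 0.093), and between the collagens at 0.15 ± 0.049 (adjusted p = 0.14), higher in fibrillar collagen.

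Among the kinases that run the spindle, Aurka, which matures the spindle poles, had the largest differences. Its values were 8.68, 8.62 and 8.50 in Matrigel, 8.94, 8.92 and 8.83 in fibrillar and 9.14, 9.15 and 9.01 in non-fibrillar collagen, again without overlap. Against Matrigel it rose 1.23-fold in fibrillar (0.30 ± 0.061, adjusted p = 0.028) and 1.41-fold in non-fibrillar collagen (0.50 ± 0.061, adjusted p = 6.7e-04), and between the collagens it was at -0.20 ± 0.054 (adjusted p = 0.085). Tpx2, which activates Aurora A on the spindle, was level between the collagens (0.00 ± 0.080) and 0.22 higher in each than in Matrigel, with adjusted p = 0.15 and 0.087. Plk1, which acts from the poles to the midzone, was at 10.05, 10.08 and 10.04 in Matrigel, 10.40, 10.26 and 10.17 in fibrillar and 10.43, 10.35 and 10.36 in non-fibrillar collagen. The collagen groups overlapped, and Plk1 passed in non-fibrillar collagen against Matrigel (0.32 ± 0.058, adjusted p = 0.0052).

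The chromosomal passenger complex, which frees wrongly attached chromosomes, consists of the kinase Aurora B (Aurkb), the scaffold Incenp, survivin (Birc5) and borealin (Cdca8). Aurkb was at 9.74, 9.76 and 9.71 in Matrigel, 10.05, 9.99 and 9.99 in fibrillar and 10.12, 10.00 and 10.10 in non-fibrillar collagen. It rose by 0.27 ± 0.045 in fibrillar (adjusted p = 0.011) and by 0.34 ± 0.045 in non-fibrillar collagen (adjusted p = 0.0010). Incenp was nearly level between the collagens, at 8.33, 8.22 and 8.22 in fibrillar and 8.27, 8.22 and 8.19 in non-fibrillar collagen, and lay at 7.95, 7.94 and 7.97 in Matrigel. It rose 1.24-fold in fibrillar (0.31 ± 0.044, adjusted p = 0.0058) and 1.21-fold in non-fibrillar collagen (0.28 ± 0.044, adjusted p = 0.0028). Aurkb and Incenp kept both calls against Matrigel whichever array was left out. Birc5 (0.44 ± 0.087, adjusted p = 0.0090) and Cdca8 (0.32 ± 0.075, adjusted p = 0.018) rose in non-fibrillar collagen, and in fibrillar collagen their adjusted p was 0.086 and 0.14.

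The spindle checkpoint genes held the largest differences between the collagens and between non-fibrillar collagen and Matrigel. Mad2l1, the checkpoint protein MAD2 that captures CDC20, was at 10.15, 10.12 and 10.16 in non-fibrillar collagen, at 9.89, 9.68 and 9.72 in fibrillar collagen and at 9.73, 9.50 and 9.51 in Matrigel. The non-fibrillar arrays stood above all others, while fibrillar and Matrigel arrays overlapped. Mad2l1 was 1.48-fold higher in non-fibrillar collagen than in Matrigel (0.57 ± 0.073, adjusted p = 8.6e-04) and 1.30-fold lower in fibrillar collagen than in its non-fibrillar form (-0.38 ± 0.060, adjusted p = 0.020). Bub1, the kinase that recruits checkpoint proteins to kinetochores, was at 9.73, 9.71 and 9.62 in non-fibrillar, 9.48, 9.35 and 9.22 in fibrillar collagen and 9.26, 9.04 and 9.0 in Matrigel. Fibrillar replicate 3 lay below Matrigel replicate 1, and the non-fibrillar arrays again stood apart. Bub1 was 1.50-fold higher in non-fibrillar collagen than in Matrigel (0.58 ± 0.082, adjusted p = 0.0014) and 1.26-fold lower in fibrillar collagen than in its non-fibrillar form (-0.34 ± 0.072, adjusted p = 0.045). In fibrillar collagen against Matrigel neither passed: they were at 0.18 ± 0.073 for Mad2l1 and 0.25 ± 0.082 for Bub1, with adjusted p = 0.22 and 0.15. Between the collagens both lost the call without any array other than fibrillar replicate 1, and when all probe sets were tested one by one.

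Bub1b, which encodes the checkpoint protein BUBR1, was at 8.94, 8.80 and 8.76 in fibrillar, 8.88, 8.90 and 8.96 in non-fibrillar collagen and 8.65, 8.41 and 8.40 in Matrigel. The collagens overlapped above the Matrigel arrays. Bub1b differed little between the collagens (-0.08 ± 0.056) and rose in both against Matrigel, by 0.35 ± 0.074 in fibrillar (adjusted p = 0.031) and by 0.43 ± 0.074 in non-fibrillar collagen (adjusted p = 0.0043). Its fibrillar call held in 2 of 9 refits that left out an array. Ttk, the kinase MPS1 at the top of the checkpoint, rose in non-fibrillar collagen against Matrigel (0.40 ± 0.086, adjusted p = 0.012) and was at 0.22 ± 0.086 in fibrillar collagen (adjusted p = 0.21). Cdc20, which the checkpoint restrains and which was singled out after its values were seen, as was Cenpf, was at 9.18, 8.97 and 8.94 in fibrillar, 9.09, 9.19 and 9.02 in non-fibrillar collagen and 8.97, 8.72 and 8.84 in Matrigel. It passed in no comparison, with 0.26 ± 0.083 at most (adjusted p = 0.072).

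Of 6 genes of the centromere and the outer kinetochore, where spindle fibres attach, 5 rose in non-fibrillar collagen against Matrigel. Over all genes 6.75% rose there. In the other comparisons 0 passed (limma, smallest adjusted p = 0.21 for fibrillar collagen against Matrigel and 0.15 between the collagens). In these, 4 and 3 genes had an unadjusted p under 0.05, where 18.1% and 21.6% of all genes did. Nuf2, at 8.71, 8.60 and 8.46 in non-fibrillar, 8.58, 8.35 and 8.24 in fibrillar collagen and 8.34, 8.07 and 8.02 in Matrigel, overlapped between the collagens. Spc25 was at 7.82, 8.04 and 7.71 in non-fibrillar, 7.64, 7.63 and 7.41 in fibrillar collagen and 7.54, 7.39 and 7.43 in Matrigel, so its non-fibrillar arrays stood above the rest. Nuf2 (0.45 ± 0.109, adjusted p = 0.023), Spc25 (0.40 ± 0.092, adjusted p = 0.017) and Ndc80 (0.36 ± 0.089, adjusted p = 0.025) are subunits of the NDC80 complex, which grips microtubules. Cenpa, the histone variant that marks centromeres, was at 10.41, 10.42 and 10.38 in non-fibrillar, 10.37, 10.20 and 10.12 in fibrillar collagen and 10.18, 10.05 and 10.00 in Matrigel, and rose by 0.33 ± 0.068 (adjusted p = 0.010). The kinetochore motor Cenpe rose by 0.33 ± 0.082 (adjusted p = 0.025). Cenpf, a kinetochore protein, was the exception at 0.13 ± 0.080 (adjusted p = 0.39): its non-fibrillar values of 8.45, 8.46 and 8.48 lay among the fibrillar values of 8.74, 8.45 and 8.44.

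All 5 spindle motors and microtubule-binding genes rose in non-fibrillar collagen against Matrigel, where 6.75% of all genes did. Kif2c, which encodes the microtubule-shortening kinesin MCAK, was at 7.88, 7.90 and 7.86 in Matrigel, 8.28, 8.24 and 8.25 in fibrillar and 8.36, 8.50 and 8.43 in non-fibrillar collagen. The groups lay apart and the replicates close together. Kif2c rose 1.30-fold in fibrillar (0.38 ± 0.044, adjusted p = 0.0020) and 1.46-fold in non-fibrillar collagen (0.55 ± 0.044, adjusted p = 6.6e-05), the smallest adjusted p of the mitosis genes in each, and kept both calls whichever array was left out. Between the collagens it was at -0.17 ± 0.045 (adjusted p = 0.084). Dlgap5, which stabilizes spindle fibres, was at 8.65, 8.58 and 8.50 in fibrillar, 8.77, 8.74 and 8.70 in non-fibrillar collagen and 8.33, 8.38 and 8.28 in Matrigel, with no overlap between groups. It rose in fibrillar (0.25 ± 0.050, adjusted p = 0.026) and non-fibrillar collagen (0.41 ± 0.050, adjusted p = 6.5e-04). Kif11, the kinesin that pushes the poles apart, was at 9.58, 9.48 and 9.40 in fibrillar, 9.57, 9.58 and 9.46 in non-fibrillar collagen and 9.39, 9.22 and 9.17 in Matrigel. The kinesins Kif4 (0.31 ± 0.090, adjusted p = 0.049) and Kif11 (0.28 ± 0.069, adjusted p = 0.025) and the bundling protein Nusap1 (0.30 ± 0.080, adjusted p = 0.033) rose in non-fibrillar collagen. The Kif4 call held in 1 of 9 refits that left out an array, and was lost on the 6 arrays compared. The calls of Kif11 and Nusap1 held in 5 of 9 such refits. All 3 were lost when all probe sets were tested one by one. In fibrillar collagen against Matrigel Nusap1 was at 0.06 ± 0.080, the smallest difference among the 39 genes.

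Condensin, built on Smc2 and Smc4, compacts chromosomes. Of its 5 listed subunits 3 rose in non-fibrillar collagen against Matrigel, where 6.75% of all genes did. Smc2 was at 8.40, 8.40 and 8.30 in Matrigel, 8.60, 8.56 and 8.55 in fibrillar and 8.73, 8.75 and 8.79 in non-fibrillar collagen, with no overlap between groups, and was the gene called in all 3 comparisons. Its differences were 0.21 ± 0.042 (adjusted p = 0.027) and 0.39 ± 0.042 (adjusted p = 3.2e-04) against Matrigel for fibrillar and non-fibrillar collagen, and -0.18 ± 0.036 (adjusted p = 0.034) between the collagens, a call that was lost whichever array was left out and after quantile normalization again. Its partner Smc4 was at 0.08 ± 0.072 and 0.18 ± 0.072 against Matrigel, with adjusted p = 0.61 and 0.16. Ncapg rose 1.21-fold in fibrillar (0.27 ± 0.058, adjusted p = 0.032) and 1.43-fold in non-fibrillar collagen (0.51 ± 0.058, adjusted p = 4.3e-04), with -0.24 ± 0.059 between them (adjusted p = 0.066). Its fibrillar call held in 2 of 9 refits that left out an array. Its values were 8.36, 8.43 and 8.48 in Matrigel, 8.71, 8.72 and 8.65 in fibrillar and 8.83, 9.04 and 8.94 in non-fibrillar collagen, so the 3 groups did not overlap. Ncaph rose in non-fibrillar collagen (0.31 ± 0.065, adjusted p = 0.012), whereas Ncapd2 was at 0.21 ± 0.057 in fibrillar and 0.12 ± 0.057 in non-fibrillar collagen (adjusted p = 0.079 and 0.22).

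Top2a and Mki67, both used as proliferation markers, had different orders of group means. Top2a, the topoisomerase that untangles sister chromatids, was at 9.64, 9.63 and 9.62 in Matrigel, 9.96, 9.93 and 9.92 in fibrillar and 10.10, 10.11 and 9.97 in non-fibrillar collagen. It rose 1.24-fold in fibrillar (0.31 ± 0.046, adjusted p = 0.0073) and 1.35-fold in non-fibrillar collagen (0.43 ± 0.046, adjusted p = 3.4e-04). Top2a was the gene with 2 probe sets, and the other one was dim (3.15 to 3.39 in fibrillar, 2.99 to 3.60 in non-fibrillar collagen and 3.13 to 3.22 in Matrigel); when both were averaged the fibrillar call was lost (adjusted p = 0.20). Mki67, which encodes the chromosome coat protein Ki-67, was highest in fibrillar collagen at 10.80, 10.73 and 10.57, against 10.60, 10.56 and 10.44 in non-fibrillar collagen and 10.49, 10.38 and 10.40 in Matrigel. The fibrillar arrays lay above all Matrigel arrays and overlapped the non-fibrillar ones. Mki67 passed in no comparison: it was at 0.28 ± 0.065 in fibrillar and 0.11 ± 0.065 in non-fibrillar collagen against Matrigel (adjusted p = 0.0502 and 0.37) and at 0.17 ± 0.070 between the collagens (adjusted p = 0.23). In fibrillar collagen against Matrigel Mki67 lay at the threshold: of 9 alternatives that kept the arrays compared, 7 called it, among them quantile normalization again (adjusted p = 0.030) and the filter on genes with a mean of at least 6 (adjusted p = 0.023), and over all alternatives its adjusted p ran from 0.017 to 0.15.

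**Figure D4:**
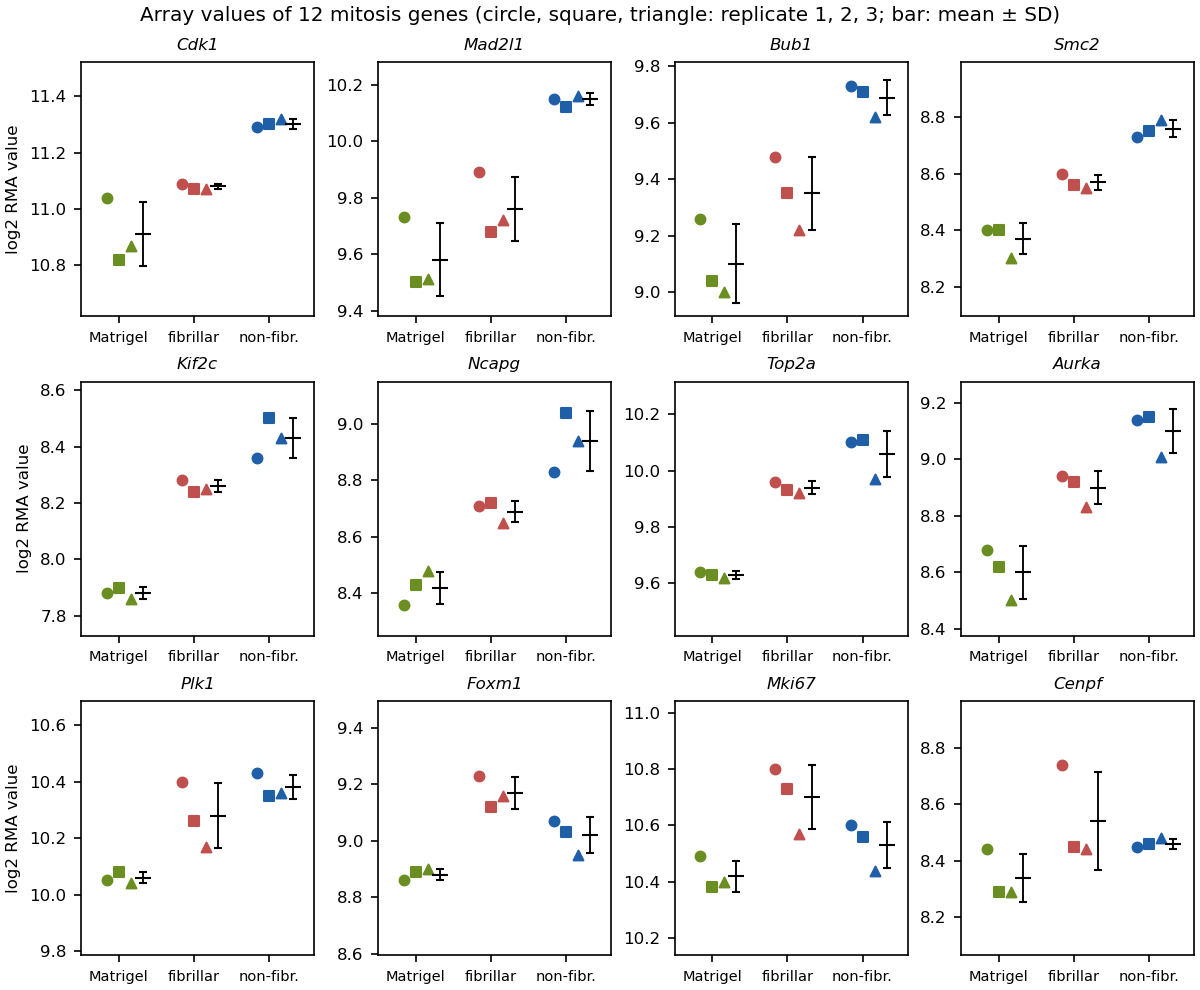
Log2 RMA values of 12 mitosis genes on each array (symbols by replicate number, colours by group) with the mean ± SD of each group (n = 3); axes differ in level but span the same range. Cdk1, Mad2l1, Bub1 and Smc2 are highest in non-fibrillar collagen without overlap, whereas Foxm1 is highest in fibrillar collagen without overlap and the fibrillar arrays of Mki67 and Cenpf overlap the non-fibrillar ones.

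All 5 genes of the spindle midzone and cytokinesis rose in non-fibrillar collagen against Matrigel, and 2 also in fibrillar collagen. Over all genes 6.75% and 1.45% rose. Kif20a, a midzone kinesin, was at 9.04, 8.99 and 9.01 in Matrigel, 9.31, 9.22 and 9.22 in fibrillar and 9.43, 9.40 and 9.39 in non-fibrillar collagen, with no overlap. It rose by 0.23 ± 0.041 in fibrillar (adjusted p = 0.015) and by 0.39 ± 0.041 in non-fibrillar collagen (adjusted p = 3.0e-04). Anln, the scaffold of the contractile ring, was at 11.19, 11.13 and 11.01 in fibrillar, 11.16, 11.06 and 11.01 in non-fibrillar collagen and 10.77, 10.80 and 10.77 in Matrigel. It was level between the collagens (0.04 ± 0.063) and rose by 0.33 ± 0.057 in fibrillar (adjusted p = 0.013) and by 0.29 ± 0.057 in non-fibrillar collagen (adjusted p = 0.0077). Prc1, which bundles midzone microtubules, was at 9.23, 9.06 and 9.0 in fibrillar, 9.16, 9.18 and 9.16 in non-fibrillar collagen and 8.89, 8.88 and 8.81 in Matrigel, with both collagens above Matrigel. The midzone kinesin Kif23 (0.39 ± 0.084, adjusted p = 0.012), Prc1 (0.31 ± 0.057, adjusted p = 0.0063) and Ect2, which activates RhoA at the cleavage plane (0.27 ± 0.064, adjusted p = 0.022), rose in non-fibrillar collagen. In fibrillar collagen these were at 0.32, 0.24 and 0.23, with adjusted p = 0.072, 0.054 and 0.091.

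The 7 genes with a higher mean in fibrillar than in non-fibrillar collagen were Foxm1, Mki67, Ncapd2, Cenpf, Anln, Incenp and Tpx2, and none of them was called between the collagens. The 7 genes called in no comparison were Ccnb2, Tpx2, Cdc20, Cenpf, Smc4, Ncapd2 and Mki67. Apart from Cenpf, each of them was called against Matrigel in at least 1 of 9 alternatives that kept the arrays compared, for example Cdc20 in 5 and Tpx2 in 4 for non-fibrillar collagen.

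Arrays also differed within groups. Fibrillar replicate 1 was the highest of its group for 37 of the 39 genes, against 41.9% of all genes, and fibrillar replicate 3 the lowest for 32. Matrigel replicate 1 was highest for 29 and non-fibrillar replicate 1 for 21, while replicate 3 was lowest for 25 and 28. Between arrays of equal number, which are not known to be paired, the median fibrillar minus non-fibrillar difference was -0.04, -0.15 and -0.16 for numbers 1, 2 and 3. Of the 39 genes 26, 34 and 33 were lower in fibrillar collagen. For non-fibrillar collagen minus Matrigel the medians were 0.31, 0.36 and 0.34, and all 39 genes were higher at each number. The spread between fibrillar arrays, from -0.045 to 0.137 in the mean of the 39 genes, was thus wider than the difference of that mean between the collagens, and the median between the collagens was -0.16 without fibrillar replicate 1 and -0.06 without fibrillar replicate 3.

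Other genes of mitosis were taken from lists of 103 genes, of which 100 were measured. In non-fibrillar collagen against Matrigel 47 rose and 1 fell, with a median of 0.21, where 6.75% of all genes rose and 7.07% fell. In fibrillar collagen 7 rose and 0 fell, with a median of 0.10, where 1.45% of all genes rose and 2.37% fell. Between the collagens 13 fell and 1 rose in fibrillar collagen, with a median of -0.13, where 3.69% of all genes fell and 2.71% rose. With replicate number as a block the collagens gave 13 calls, of which 7 were shared. The gene that fell against Matrigel was Numa1, a spindle pole protein, and the gene that rose between the collagens was Anapc1, a scaffold subunit of the APC/C (adjusted p = 0.046, and 0.076 with the block); both were named after their values were seen. Among 22 regulators of mitotic entry and exit, Cks1b and Cks2, small proteins that bind CDK1, fell by 0.31 ± 0.039 and 0.30 ± 0.035 in fibrillar against non-fibrillar collagen (adjusted p = 0.012 and 0.011). Cks1b was at 11.45, 11.52 and 11.54 in non-fibrillar, 11.23, 11.18 and 11.19 in fibrillar collagen and 11.04, 10.96 and 10.99 in Matrigel, with no overlap between groups. Of 23 genes of the APC/C and of chromatid separation 9 rose in non-fibrillar collagen against Matrigel, among them securin, Pttg1 (0.33 ± 0.039, adjusted p = 4.9e-04), and 3 fell between the collagens, led by the APC/C subunit Cdc16 (-0.30 ± 0.032, adjusted p = 0.0080) and sororin, Cdca5 (-0.35 ± 0.042, adjusted p = 0.011).

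Of 14 measured genes of the constitutive centromere, 8 rose in non-fibrillar collagen against Matrigel and 4 fell between the collagens. In fibrillar collagen against Matrigel 0 passed (limma smallest adjusted p = 0.11, 1 at an unadjusted p under 0.05, where 18.1% of all genes were). Over all genes 6.75% rose in non-fibrillar and 1.45% in fibrillar collagen against Matrigel, and 3.69% fell between the collagens. These shares hold for the lists below as well. Cenpq, an inner kinetochore subunit, was at 7.93, 8.11 and 7.84 in non-fibrillar, 7.41, 7.17 and 7.09 in fibrillar collagen and 7.26, 7.07 and 7.33 in Matrigel. The non-fibrillar arrays stood apart, and fibrillar and Matrigel arrays overlapped. The Cenpq difference between the collagens was -0.74 ± 0.101 (adjusted p = 0.014), a larger difference than that of any of the 39 genes. Mis18a, which helps to load CENP-A, fell by 0.42 ± 0.042 (adjusted p = 0.0071). Of 16 other kinetochore and checkpoint genes 8 rose in non-fibrillar collagen and 2 in fibrillar collagen against Matrigel, Ska3 and Kntc1 among both. Of 18 other spindle genes 10 rose in non-fibrillar collagen, including Stmn1 (0.30 ± 0.042, adjusted p = 0.0015), and of 7 genes of condensin II and cytokinesis Cep55 and Ncapg2 did, with Cep55 at 0.51 ± 0.049 (adjusted p = 1.9e-04).

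Genes of DNA replication and the entry into S phase, an earlier stage of the cycle, are given beside these for their counts. Of 40 measured, 35 rose in non-fibrillar collagen against Matrigel and 8 in fibrillar collagen, with medians of 0.34 and 0.12. Over all genes 6.75% and 1.45% rose. Between the collagens 14 fell, where 3.69% of all genes did, with a median of -0.18 and 13 calls with the block, 9 of them shared. Relative to each gene's mean the level of these replication genes was 0.179 ± 0.0088 (SD, n = 3) in non-fibrillar collagen, -0.023 ± 0.067 in fibrillar collagen and -0.155 ± 0.040 in Matrigel. The difference between this list and the mitosis genes was not tested.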

How the data were processed

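RNA of 9 D2.OR samples was hybridised to Affymetrix arrays. The deposited log2 values, 1 per probe set and array, come from the authors; per the submitters' processing notes, Affymetrix Power Tools and its RMA method were used. That method subtracts background, equalizes array distributions and summarizes probes, so a shift common to nearly all genes would not show. The sources used here give no versions and do not say which arrays were normalized together. Of 35512 probe sets, 21789 had 1 symbol in the platform annotation, 1621 several and 12102 none; the brightest probe set per gene by mean over 9 arrays gave 19938 genes, with no filter. Groups came from sample titles.

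Differences were fitted with limma 3.58.1 (R 4.3.3; lmFit, eBayes): the collagens on their 6 arrays, Matrigel comparisons on all 9. Tests were two-sided, p-values were adjusted over the whole table by Benjamini-Hochberg, and calls passed 0.05. Errors are limma's SE, 3 arrays a group; folds are antilogs of log2 differences. Scripts were tested on simulated data. Over all genes, deviations from group means correlated between same-numbered collagen arrays at r = 0.221, 0.143 and 0.242. Against Matrigel r was 0.253, 0.103 and 0.097 for fibrillar and 0.125, 0.045 and 0.135 for non-fibrillar collagen. Every value was positive, but arrays of different number were not correlated for reference. In each group the mean of the 39 mitosis genes fell from replicate 1 to replicate 3. No label pairs the arrays, so whether the numbers are pairs is not known in any comparison. The main fits left them unpaired, and replicate number as a block was an alternative. The rule for members uses gene names, but members, lists and tests were chosen with earlier results of these data known. Array values are given for up to 3 called members of smallest p per role and for Mki67, Top2a, Cdk1, Foxm1, Plk1, Aurka, Aurkb, Bub1, Ncapg and Kif20a, and of other lists up to the 2 called genes of smallest p per comparison are named. Alternatives changed the arrays in the fit, block, normalization, filter, probe set rule, prior and weights, or left out each array. The number of arrays limits the precision.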

Additional observations from a re-analysis of the deposited data

How the results depend on the processing

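Differences of the 39 mitosis genes from Matrigel stayed positive in every alternative run, and the medians ranged from 0.17 to 0.27 for fibrillar and from 0.31 to 0.37 for non-fibrillar collagen when each array was left out. The number called moved. Between the collagens the main fit called 4, and 6.40% of all genes. With all 9 arrays in the fit 7 were called (8.85% of all genes), and 8 with only genes of a mean of at least 6 (19.1% of those tested). After quantile normalization again 2 were called (6.28% of all genes), and 1 when all probe sets were tested one by one (1.34% of probe sets). When each array was left out 0 to 3 were called (0.752% to 2.85% of all genes). With the replicate block 5 were called (6.44% of all genes), of which 3 were shared. For fibrillar collagen against Matrigel the main fit called 13, and 3.82% of all genes. On the 6 arrays compared 8 were called (2.31% of all genes), and 21 with only genes of a mean of at least 6 (11.0% of those tested). When all probe sets were tested one by one 7 were called (1.22% of probe sets). Leaving out each array gave 6 to 12 (1.77% to 3.60% of all genes). With the replicate block, where the numbers are not known to pair the arrays, 25 were called, all higher and including all 13, where 383 genes were higher and 637 lower over the whole table. For non-fibrillar collagen the main fit called 31, and 13.8% of all genes. Leaving out each array gave 22 to 33 (9.10% to 13.2% of all genes), with 21 genes called in every such refit. The other alternatives gave 24 to 35, with 8.14% to 30.8% called over all genes or probe sets tested. Calls over all genes moved by more than 1.5 times too: between the collagens 541 higher and 736 lower became 826 and 1285 with the filter and 219 and 257 with all probe sets, and for fibrillar collagen against Matrigel 289 and 473 became 442 and 769, 146 and 286, and 149 and 311 on the 6 arrays compared. The filter tests 11052 genes and the probe set alternative 35512 probe sets; the cause of the other shifts was not tested.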
